A study of Arabidopsis thaliana with 28 samples.

Results

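Developing leaves of Arabidopsis thaliana Col-0 sampled after 4 h of treatment were compared with developing leaves sampled after 2 h. The comparison rests on 8 of the 28 arrays of the series, chosen by their titles: 4 arrays titled 4 h (replicates 1 to 4) and 4 arrays titled 2 h (replicates 1 to 4). Every Affymetrix ATH1 probe set that is not a control was tested, 22746 in all. Both groups were wild-type Col-0 plants in compost, kept at 20 °C and 50% humidity with a 10 h light period, and both had received the same treatment of low light at ambient CO2. The leaves were at insertions 19 to 21.

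The series title places these arrays in a study of how signals of irradiance and CO2 pass through the plant, and it also holds developing leaves at 12, 24, 48 and 96 h and mature leaves at 24 h. No array of untreated plants or of plants in high light enters. The comparison therefore shows change with time and cannot show whether low light had an effect. The labels do not give the time of day at harvest, so hours of treatment and time of day cannot be told apart. Another array titled 4 h replicate 1 carries a different letter code in its treatment note (ES, where the others have AS); since the codes are not defined, it was left out of every group.

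Leaf transcripts follow the day in step with the circadian clock, a set of genes that repress and activate each other in a fixed daily order, and with light and sugar supply. Starch is laid down in chloroplasts in the light and broken down at night, and many genes of starch breakdown peak late in the light period. Some cold-regulated genes are also gated by the clock, so that they vary through the day without any cold.

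The values are MAS5 signals, the linear probe-set intensities of the Affymetrix software, and each array was scaled to a trimmed mean of 100. Across the 8 arrays the median signal ran from 41.1 to 45. Replicates had no identical values. The log2 ratio of the 3′ to the 5′ probe sets of actin, a sign of RNA degradation, was 2.47 ± 0.54 at 4 h and 2.56 ± 0.50 at 2 h (SD, n = 4 each; exact permutation test, two-sided, p = 0.857). It ran from 1.74 to 3.08 over the 8 arrays. The same ratio for GAPDH was lower, at 0.53 ± 0.32 at 4 h and 0.36 ± 0.32 at 2 h (exact permutation p = 0.486). How far the RNA was degraded on all arrays was not tested. The 100 strongest probe sets of an array held 10.5% ± 0.945 of the summed signal at 4 h and 9.18% ± 1.01 at 2 h (exact permutation p = 0.114, adjusted p = 0.457 over 4 array measures; the smallest p possible is 0.0286). Among the 100 probe sets with the highest mean over the 8 arrays, 98 had a positive log2 change, with a median of 0.24, while after quantile normalization 57 did, with a median of 0.01. Without 2 h replicate 3, which had the lowest share in its 100 strongest probe sets (7.73%), the median was 0.13. Changes are differences of log2(signal + 10) ± SE from 1 limma fit over all groups, and adjusted p-values cover all 22746 probe sets. A fold of signal plus 10 is smaller than the ratio of the signals where a signal is low. The labels do not say that replicates are separate plants. Each p-value thus reflects only a spread among arrays, pooled over the 7 groups fitted, which may be technical. The leaves are bulk tissue, in which fewer cells of a type and less RNA per cell cannot be told apart. The number of arrays limits the precision.

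Between 2 h and 4 h, 326 probe sets passed an adjusted p of 0.05, which is 1.43% of those tested. Of these, 194 were higher at 4 h (0.853%) and 132 were lower (0.58%). Most changes were below 2-fold: the median was 1.59-fold among the rises and 1.54-fold among the falls, and a change of 2-fold or more was seen in 44 of the rises and 11 of the falls, 55 in all. The values of the 4 h arrays and the 2 h arrays did not overlap for 313 of the 326, against 5.57% of all probe sets. The calls were made on these same values, so the lack of overlap is no separate support for them. The median log2 change over all probe sets was 0.01. Calls were unevenly spread over signal: the 5687 probe sets of strongest signal held 197 of them (3.46%) and the 5687 of weakest signal held 9 (0.158%). A gene name was available for 148 of the 326, 92 that rose and 56 that fell. The largest changes in either direction, 2.99 and -1.89 on the log2 scale, belong to probe sets that the gene table does not list.

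**Figure D1:**
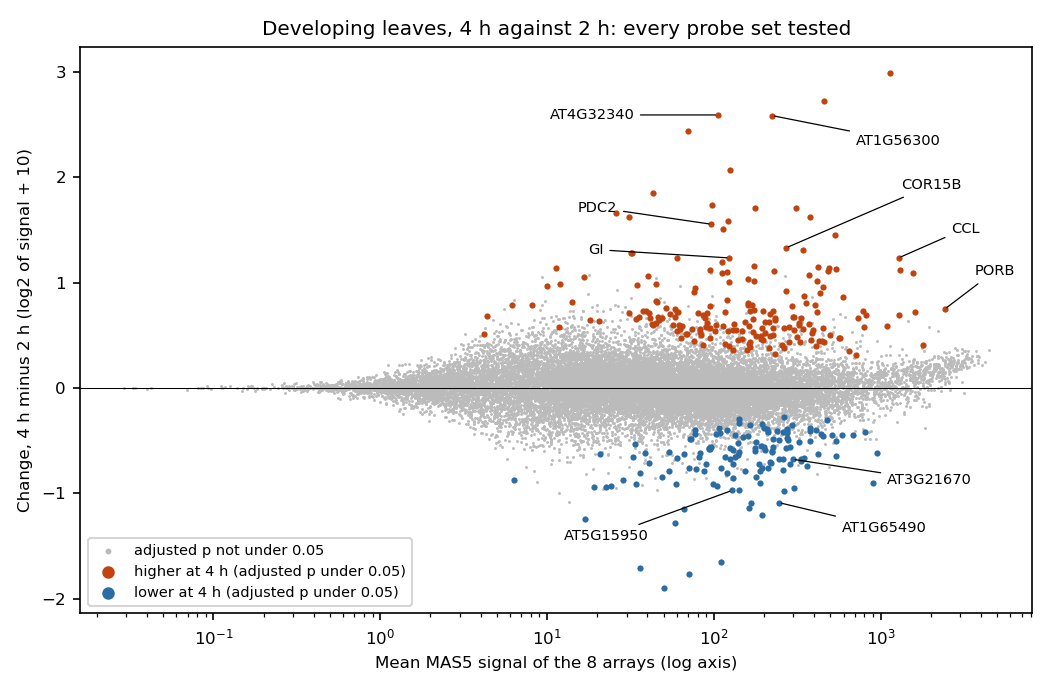
Log2 change at 4 h minus 2 h (y axis, log2 of signal + 10) against the mean MAS5 signal of the 8 arrays (x axis, log scale) for every probe set tested. Orange points were higher at 4 h and blue points lower at adjusted p under 0.05 (194 and 132 probe sets), and grey points did not pass; the strongest signals at the right lie slightly above 0.

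On the clock lists, 1 of 14 evening genes and 2 of 15 morning genes had a named probe set. Of these GI and CCL rose, beside 0.853% of all probe sets. These lists and those below were chosen with earlier results of these data known. Counts of list members beside the share of all probe sets are thus no test of the lists. GI (GIGANTEA, AT1G22770) acts with an evening phase in the clock and in the day-length response. It had 189, 173, 172 and 172 signal units on the 4 h arrays, against 63, 73.5, 75.3 and 65.5 on the 2 h arrays. The groups lie far apart, and GI was 2.35-fold higher at 4 h (log2 change 1.24 ± 0.12, adjusted p = 9.0e-07). CCL (AT3G26740) is a clock-controlled transcript known for its short life in the cell. It had 1796, 1780, 2026 and 1624 at 4 h, against 1012, 667, 688 and 712 at 2 h, with a log2 change of 1.24 ± 0.15 (adjusted p = 2.2e-05). Its 2 h replicate 1 stood above the other 2 h arrays, yet below all 4 h arrays. RVE6, a MYB-like clock activator of the morning and the only other clock-list member with a named probe set, had means of 57.3 at 4 h and 54.8 at 2 h and did not pass (adjusted p = 0.961).

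Of 19 genes on the starch breakdown list, 2 had a named probe set, and both rose, beside 0.853% of all probe sets. This list, too, was chosen with earlier results known. PWD (AT5G26570) encodes phosphoglucan water dikinase, which phosphorylates the starch granule surface so that amylases can act on it. It had 310, 289, 255 and 231 at 4 h, against 182, 143, 171 and 155 at 2 h, a log2 change of 0.70 ± 0.09 (adjusted p = 2.9e-05). DPE1 (AT5G64860), the disproportionating enzyme that joins short maltooligosaccharides inside the chloroplast, had 233, 225, 211 and 202 at 4 h, against 128, 141, 113 and 109 at 2 h (0.78 ± 0.12, adjusted p = 0.000498). Neither pair of groups overlapped. None of the 3 measured genes of starch synthesis (APL3, APL4 and SBE2.2) passed, with changes between -0.14 and 0.22 and a median of -0.01, nor did SWEET11, a sucrose exporter, or ATSPS4F, a sucrose phosphate synthase. The 7 measured genes of the low-sugar response, which cover the breakdown of branched-chain amino acids and regulators of the starved state, had a median change of 0.01 and no call. Their largest value was AKINBETA1, a subunit of the SnRK1 energy-sensing kinase, at 0.42 (adjusted p = 0.355).

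Of 6 measured cold-regulated genes, 3 rose (median log2 change 0.49), beside 0.853% of all probe sets. The choice of this list was likewise made with earlier results known. COR15B (AT2G42530) and COR15A (AT2G42540) encode small hydrophilic proteins that protect chloroplast membranes during freezing. COR15B had 463, 295, 391 and 433 at 4 h, against 127, 147, 138 and 189 at 2 h (1.33 ± 0.18, adjusted p = 9.1e-05). COR15A had 159, 221, 203 and 294 at 4 h, against 90.8, 126, 72.8 and 117 at 2 h (1.03 ± 0.21, adjusted p = 0.00703). These adjacent genes are close copies of each other, and cross-hybridisation between their probe sets was not tested. COR27 (AT5G42900), a cold- and light-regulated repressor of clock genes, had 1.81, 15.6, 11.6 and 14.3 at 4 h, against 0.744, 1.66, 1.93 and 1.84 at 2 h. Its groups overlap through 4 h replicate 1, all values are near background, and the call (0.79 ± 0.16, adjusted p = 0.00891) ended with only the 4 h and 2 h arrays fitted (0.209), with a pseudocount of 50 (0.0945) or without 4 h replicate 2 (0.0508). Its relative AT4G33980 (COR28) had 3.78 at 4 h and 2.57 at 2 h, and COR47 and LTI30, dehydrins induced by cold and drought, had changes of 0.19 and -0.15. None of these 3 passed.

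A pair of neighbouring genes of the low-temperature and salt-responsive hydrophobic protein family, which lay outside the lists, also rose. AT4G30650 had 818, 707, 829 and 772 at 4 h, against 245, 285, 297 and 293 at 2 h (1.45 ± 0.12, adjusted p = 1.1e-07). AT4G30660 had 725, 691, 662 and 611 at 4 h, against 372, 338, 236 and 268 at 2 h (1.14 ± 0.13, adjusted p = 3.9e-06). Each gene's 4 h arrays were all above its 2 h arrays, which the rule for naming a rise required. They belong to the same family, and cross-hybridisation between their probe sets was not tested.

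**Figure D2:**
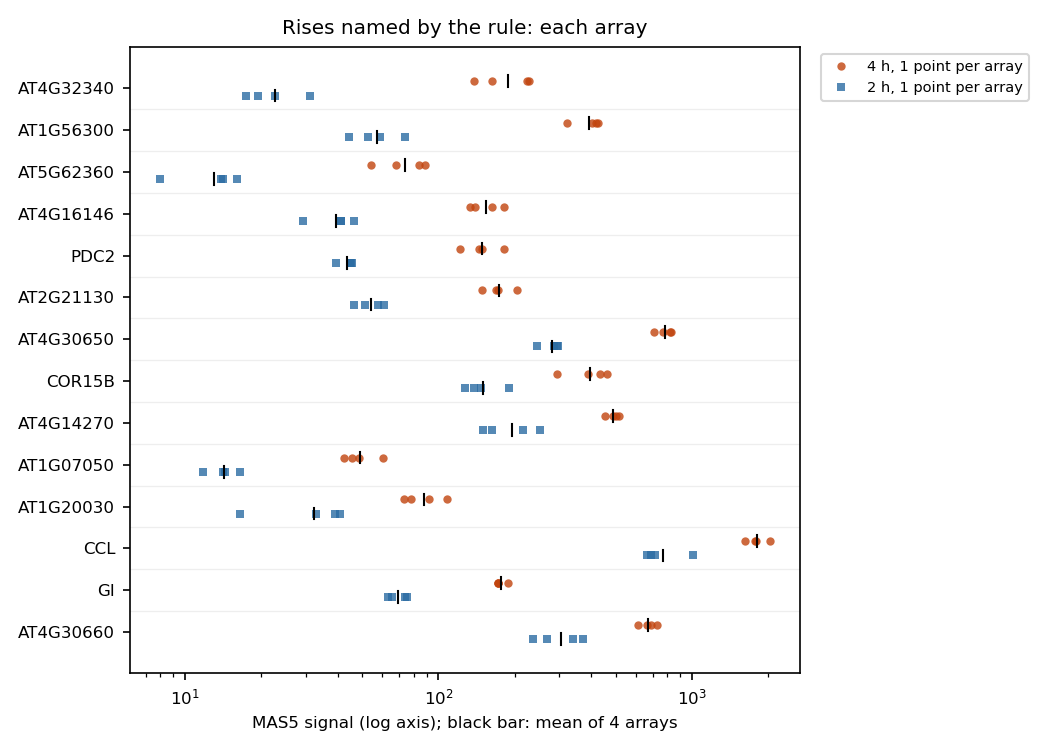
MAS5 signal (x axis, log scale) of each array for the 14 largest rises named by the rule, with orange circles for 4 h arrays, blue squares for 2 h arrays and a black bar at the mean of 4 arrays. The rule admits only genes without overlap, so in every gene the 4 h circles lie to the right of all 2 h squares.

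The largest named rise was AT4G32340, which encodes a protein with tetratricopeptide-like repeats. It had 228, 138, 163 and 224 at 4 h, against 31, 22.6, 17.3 and 19.4 at 2 h (2.59 ± 0.25, adjusted p = 5.9e-07). AT1G56300, a DnaJ-domain co-chaperone gene, had 425, 322, 403 and 417 at 4 h, against 58.8, 52.9, 44.2 and 74 at 2 h (2.59 ± 0.16, adjusted p = 9.5e-10). Both were 6-fold higher at 4 h in signal plus 10. Chaperone genes of the heat and stress response, 4 in number, gave no call (Hsp70-2, AT3G09440, AT5G48570 and AT2G20560, from -0.09 to 0.29). AT5G62360, of the invertase and pectin methylesterase inhibitor family, was 3.61-fold higher, at 73.6 ± 15.7 at 4 h against 13 ± 3.49 at 2 h (SD, n = 4 each; 1.85 ± 0.22, adjusted p = 1.0e-05). AT4G16146, related to a cAMP-regulated phosphoprotein, was 3.33-fold higher, and AT2G21130, a cyclophilin (a peptidyl-prolyl isomerase), was 2.85-fold higher. AT4G14270, with a motif that binds poly(A)-binding protein, averaged 490 ± 26.1 at 4 h and 195 ± 47.6 at 2 h. AT1G07050, a small protein with the CCT domain shared by CONSTANS and the clock's PRR proteins, averaged 49.2 ± 7.81 at 4 h and 14.2 ± 1.95 at 2 h (1.28 ± 0.13, adjusted p = 1.3e-06). AT1G20030, of the thaumatin family of pathogenesis-related proteins, averaged 87.7 ± 15.6 at 4 h and 32.4 ± 11.1 at 2 h (1.24 ± 0.22, adjusted p = 0.00198), a call that ended with a pseudocount of 1 (0.0522).

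PDC2 (AT5G54960) encodes pyruvate decarboxylase, the entry enzyme of ethanol fermentation. It had 181, 122, 149 and 144 at 4 h, against 39.5, 45.1, 45.5 and 44.7 at 2 h (2.94-fold, log2 change 1.56 ± 0.25, adjusted p = 0.000572). The other 2 measured members of the fermentation list did not pass: AT4G17260, a lactate dehydrogenase gene, changed by 0.03 and ACS, an acetyl-CoA synthetase gene, by -0.01.

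Among the measured genes of photosynthesis and chlorophyll synthesis, PORB rose, LHCB4.3 fell and the others did not pass. PORB (AT4G27440), a light-dependent protochlorophyllide oxidoreductase of chlorophyll synthesis, had 2633, 2802, 3573 and 3217 at 4 h, against 2000, 1831, 1480 and 1930 at 2 h. The groups did not overlap (0.75 ± 0.14, adjusted p = 0.00317), and after quantile normalization, which removes the shift of the strongest probe sets, its change was 0.64 (adjusted p = 0.00515). CHLM and GSA1 of the same pathway changed by -0.02 and 0.05 with no call. None of 5 measured photosystem and ATP synthase subunits (PSAE-1, PSAN, PSBW, PSBY and ATPC1) passed. Their changes were 0.06 to 0.21 with a median of 0.15, and the median was -0.03 after quantile normalization. These probe sets are of strong signal themselves. A change of these genes and a general shift of strong signals cannot be told apart, and this was not tested. RCA, the activase of Rubisco and the marker at hand for green leaf tissue, had means of 3320 at 4 h and 2858 at 2 h (adjusted p = 0.7). None of 3 Calvin cycle genes and none of 3 photorespiratory genes passed. LHCB4.3 (AT2G40100), the light-harvesting protein of photosystem II also known as LHCB8, had 314, 310, 217 and 231 at 4 h, against 462, 375, 329 and 368 at 2 h (-0.51 ± 0.13, adjusted p = 0.0455). That call sits at the threshold and ended under 12 of 20 alternatives, 5 of which leave out 1 library: 4 h replicate 3 (0.187) or 4 (0.165), or 2 h replicate 1 (0.174), 2 (0.0819) or 4 (0.084). Its relatives LHCB4.1 and LHCB4.2 changed by 0.25 and 0.04 without a call.

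Of 21 genes on the flavonoid list, 6 had a named probe set. Of these, 1 fell, beside 0.58% of all probe sets, and 5 did not pass. The call was AT1G06000 (a flavonol 7-O-rhamnosyltransferase gene), with 172, 223, 147 and 215 at 4 h, against 282, 354, 339 and 337 at 2 h (-0.78 ± 0.15, adjusted p = 0.00381). Its groups did not overlap. The other 5 had changes from -0.79 to -0.34 and none passed. All 6 had an unadjusted p under 0.05, as did 2247 of all 22746 probe sets. The list median was -0.66 beside 0.01 over all probe sets, for a list chosen with earlier results known. CHIL, a chalcone isomerase-like protein that assists chalcone synthase, came nearest, with 132, 144, 83.3 and 123 at 4 h, against 153, 213, 226 and 196 at 2 h (-0.67, adjusted p = 0.0612). DFR (dihydroflavonol reductase) and UGT78D2 (a flavonol 3-O-glucosyltransferase) had changes of -0.65 (adjusted p = 0.265) and -0.46 (adjusted p = 0.301). HYH, a bZIP factor of the light response and the only measured member of the light-signalling list, had 16.9, 15.6, 19 and 18 at 4 h, against 21.4, 24.5, 27.6 and 40 at 2 h (adjusted p = 0.151).

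**Figure D3:**
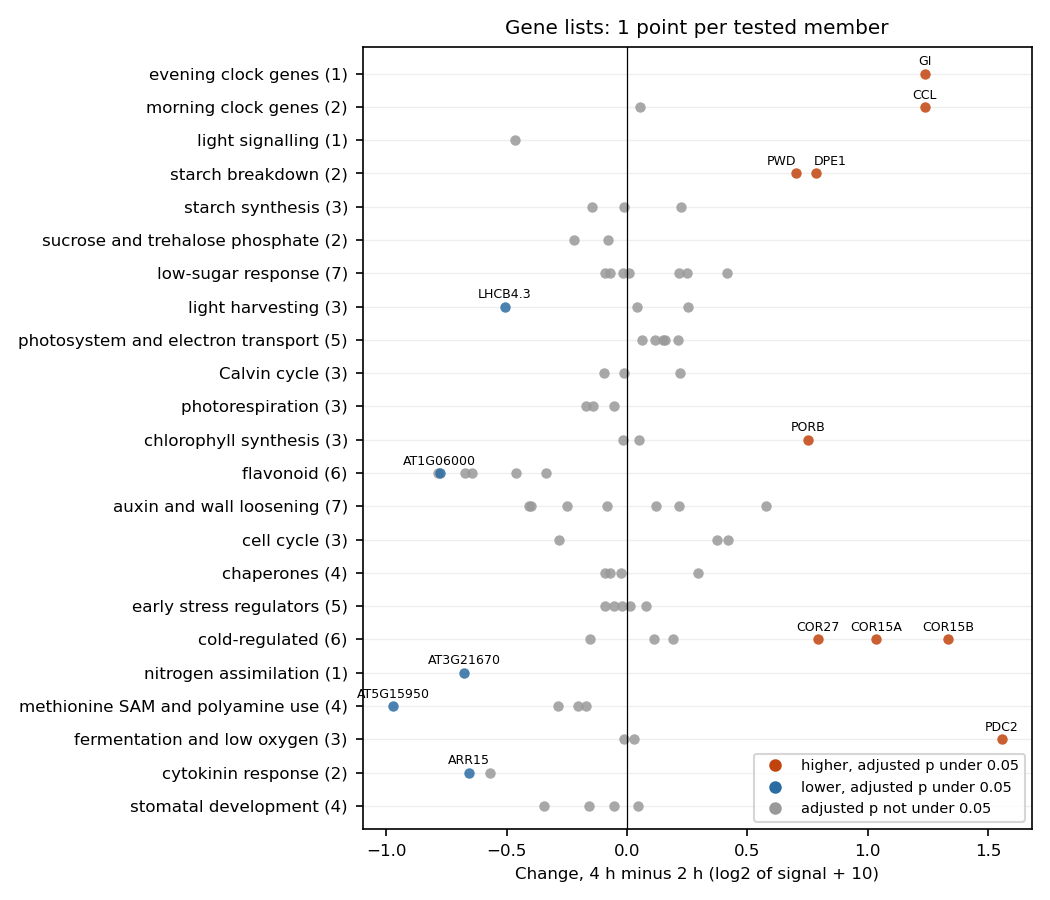
Log2 change at 4 h minus 2 h (x axis, log2 of signal + 10) of every measured member of 23 gene lists, with the number of measured members in brackets. Orange points rose and blue points fell at adjusted p under 0.05 (9 and 5 members, named), and grey points did not pass.

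AT5G15950, an S-adenosylmethionine decarboxylase gene of polyamine synthesis, had 94.5, 69.1, 80.6 and 87.5 at 4 h, against 167, 153, 233 and 144 at 2 h, a fall by 0.97 on the log2 scale (± 0.15, adjusted p = 0.00036). The paralogue SAMDC had means of 1667 at 4 h and 1876 at 2 h, with a change of -0.17 and no call. AT3G21670, a nitrate transporter gene of the NPF family (NPF6.4), had 236, 227, 249 and 202 at 4 h, against 359, 377, 386 and 358 at 2 h (-0.68 ± 0.13, adjusted p = 0.00335). It was the only measured member of the nitrogen list. ARR15 (AT1G74890), a type-A response regulator that is induced by cytokinin and damps its signal, had 109, 84.3, 77.1 and 83.2 at 4 h, against 150, 122, 161 and 144 at 2 h (-0.65 ± 0.13, adjusted p = 0.00666). RR16, of the same class, had means of 112 at 4 h and 176 at 2 h and did not pass (-0.57, adjusted p = 0.0745).

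The largest named fall was AT1G65490, with 166, 127, 155 and 150 at 4 h, against 534, 247, 352 and 244 at 2 h (-1.09 ± 0.23, adjusted p = 0.00988). The 2 h arrays spread widely, and the call ended without 2 h replicate 1 (0.0518) or with only the 4 h and 2 h arrays fitted (0.0638). AT5G64850 had 96.8, 101, 105 and 70.1 at 4 h, against 211, 157, 195 and 202 at 2 h (-0.97 ± 0.13, adjusted p = 4.4e-05). AT3G56290 averaged 131 ± 36.6 at 4 h and 247 ± 34.5 at 2 h (-0.90 ± 0.17, adjusted p = 0.00335), a call that ended with only the 4 h and 2 h arrays fitted (0.0683). AT1G76240 averaged 110 ± 16.9 at 4 h and 197 ± 26.2 at 2 h (-0.79 ± 0.15, adjusted p = 0.00533). AT1G48100, a polygalacturonase-like gene of the pectin lyase fold, averaged 32.2 ± 6.28 at 4 h and 65.3 ± 8.61 at 2 h (-0.84 ± 0.14, adjusted p = 0.000696). Its groups did not overlap, which the rule for naming a fall required.

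A further 4 named falls, AT5G62210, AT1G13650, AT5G45960 and AT1G70270, passed less firmly and lost their calls under 6 of 20, 6 of 20, 11 of 18 and 8 of 18 alternatives. AT5G62210, of the embryo-specific protein 3 family, had 132, 260, 154 and 286 at 4 h, against 320, 384, 385 and 493 at 2 h (-0.95 ± 0.23, adjusted p = 0.0299), and lost its call without any of 5 libraries: 4 h replicate 1 (0.125) or 3 (0.13), or 2 h replicate 2 (0.0625), 3 (0.0685) or 4 (0.125). AT1G13650 averaged 68.9 ± 14.6 at 4 h and 141 ± 35.9 at 2 h (-0.93 ± 0.21, adjusted p = 0.0165), and its call ended without 4 h replicate 3 (0.0718) or its replicate 4 (0.063), and without replicate 1 (0.064) or replicate 2 (0.0702) of the 2 h group. AT5G45960, a lipase gene of the GDSL family, averaged 21.6 ± 11.4 at 4 h and 46.7 ± 3.84 at 2 h (-0.91 ± 0.23, adjusted p = 0.0456), with the call lost without any of 4 h replicates 2 (0.202), 3 (0.134) or 4 (0.0862) or any of 2 h replicates 1 (0.0788), 2 (0.0977), 3 (0.0927) or 4 (0.128). AT1G70270 had 23.3 ± 1.06 at 4 h and 48.5 ± 6.27 at 2 h (-0.81 ± 0.19, adjusted p = 0.0266), and its call ended without any of the 4 h replicates (0.0518 to 0.0766), 2 h replicate 1 (0.0906) or 2 h replicate 4 (0.0848).

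**Figure D4:**
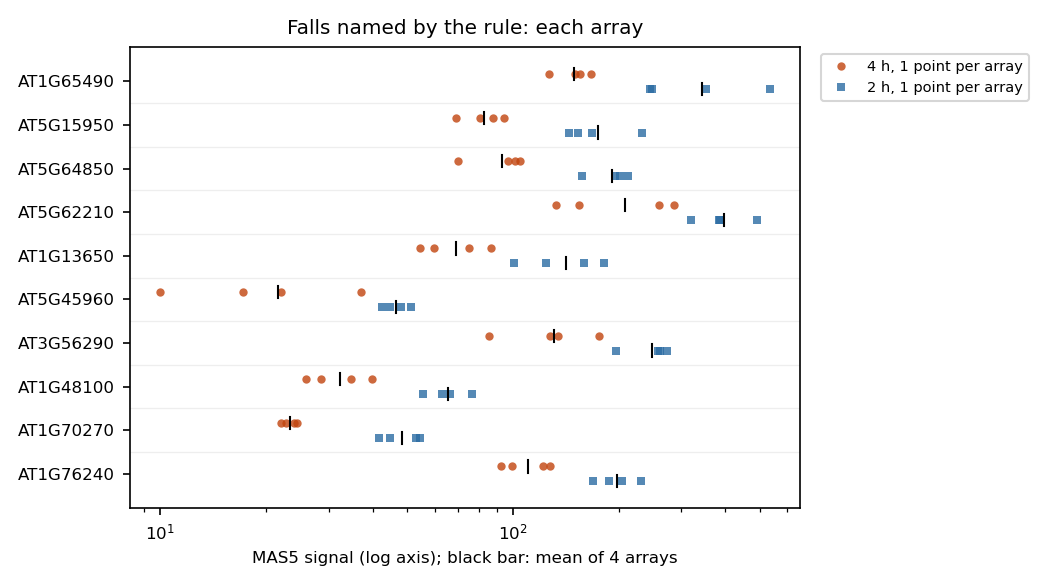
MAS5 signal (x axis, log scale) of each array for the 10 largest falls named by the rule, with orange circles for 4 h arrays, blue squares for 2 h arrays and a black bar at the mean of 4 arrays. The rule admits only genes without overlap, so in every gene the 4 h circles lie to the left of all 2 h squares. The widest spread is in AT1G65490 at 2 h and AT5G45960 at 4 h.

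The lists not described above gave no call. Over all 31 lists, 82 of 436 loci had a named probe set, and 9 rose and 5 fell, beside 0.853% and 0.58% of all probe sets. Here and for the single lists above, those shares are not matched for signal. Among the 5687 probe sets of strongest signal, 3.46% passed in both directions. The lists were chosen with earlier results of these data known. None of 7 auxin and wall-loosening genes passed. Of these WES1, an enzyme that conjugates auxin to amino acids, came nearest, with 43, 62.5, 71.8 and 55.1 at 4 h, against 37.1, 36.1, 36.8 and 30.4 at 2 h (0.58, adjusted p = 0.0618). None of 3 cell-cycle genes, 5 early stress regulators or 4 genes of stomatal development passed. Among families taken by gene symbol, none of 24 cytochromes P450, 45 UDP-glycosyltransferases, 47 ethylene response factor family members, 22 bZIP factors or 17 sugar transporters passed, beside 1.43% of all probe sets in both directions. The match by symbol missed some members. AT1G06000 (UGT89C1), the flavonol rhamnosyltransferase gene that fell, is a UDP-glycosyltransferase outside those 45. The expansins, which loosen cell walls, had 1 fall among 19, EXPB1, with 44.4 ± 10.5 at 4 h against 75.3 ± 11.5 at 2 h (-0.66 ± 0.14, adjusted p = 0.00826). The tubulins had 1 rise among 9, TUB5, with 585 ± 62.9 at 4 h against 409 ± 27.5 at 2 h (0.50 ± 0.12, adjusted p = 0.0343), and 30 ubiquitin enzymes and RING proteins had 1 rise, UBC20. The marker lists gave little to check the tissue with: no marker of mesophyll, epidermis, vasculature or flower had a named probe set. CLV3, a marker of the shoot meristem, was near background at 2.7 at 4 h and 3.13 at 2 h. AT1G22690, the guard cell marker, had means of 85.8 at 4 h and 122 at 2 h and did not pass (adjusted p = 0.542). The part of cell make-up in the results above was not tested.

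The genes in this paragraph and the next were picked from the called genes after their values were seen, so they say nothing of other genes of like function. The pectin enzyme family, taken by symbol, had no call among 4 members (-0.30 to 0.13). Among the called genes outside that family, AT1G60590, a pectin lyase-fold gene, averaged 136 ± 5.26 at 4 h against 242 ± 23.3 at 2 h (-0.78 ± 0.13, adjusted p = 0.000997), and the pectate lyase genes AT1G67750, AT5G48900 and AT4G24780 changed by -0.63, -0.46 and -0.44 (adjusted p = 0.0333, 0.0245 and 0.0204). AT1G23205, an invertase and pectin methylesterase inhibitor gene, fell by 0.44 on the log2 scale, whereas AT5G62360 of the same family was among the largest rises. GR1, a glutathione reductase, had a change of -0.71 ± 0.15 (adjusted p = 0.0109), and CYTC-2, a cytochrome c, had -0.57 ± 0.12 (adjusted p = 0.00895). No call was made among 8 thioredoxins or 12 glutathione transferases. AFR, an F-box protein of far-red light signalling, averaged 49.8 ± 5.24 at 4 h and 82.2 ± 10.8 at 2 h (-0.62 ± 0.12, adjusted p = 0.00412).

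The cell-cycle list had no call among 3 measured members: the mitotic kinases AUR1 and AUR2 changed by 0.38 and 0.42 (adjusted p = 0.13 and 0.301), and PRL, a subunit of the replication licensing complex, by -0.28 (adjusted p = 0.493). Outside the list, 3xHMG-box2 encodes a DNA-binding protein of condensed chromosomes and had 558, 511, 483 and 526 at 4 h, against 249, 404, 294 and 311 at 2 h (0.73 ± 0.18, adjusted p = 0.0362). AT2G37420, a kinesin motor gene, averaged 53.5 ± 4.48 at 4 h against 31.8 ± 4.96 at 2 h (0.61 ± 0.14, adjusted p = 0.0245). UBC20, a ubiquitin-conjugating enzyme expressed in dividing cells, averaged 233 ± 28.5 at 4 h against 155 ± 27.4 at 2 h (0.57 ± 0.11, adjusted p = 0.00691), and its groups just overlapped. The actin-bundling LIM protein genes WLIM1 and WLIM2a were higher at 4 h (0.57 ± 0.08 and 0.73 ± 0.13), as were the serine carboxypeptidase-like genes SCPL49 (0.93 ± 0.12) and scpl35 (0.87 ± 0.13). Other rises were Fes1B, a nucleotide exchange factor of HSP70 (0.81 ± 0.14), THIC, an enzyme of thiamin synthesis (0.62 ± 0.11), CHL, the lipocalin of the chloroplast (0.79 ± 0.09), and LCR69, a defensin-like protein (1.09 ± 0.12). Further thaumatin-family genes, AT1G75800 and AT4G36010, rose by 0.58 and 0.81 beside AT1G20030.

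Neighbouring genes on the chromosome with opposite changes were also present. DPE1, which rose, lies beside AT5G64850, which fell, and AT5G62200 (0.42 ± 0.10, adjusted p = 0.0245) lies beside AT5G62210 (-0.95). Pairs that moved the same way with no gene between them were COR15B with COR15A and AT4G30650 with AT4G30660.

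The later arrays give the levels that followed. GI, at 69.3 ± 6 at 2 h and 176 ± 8.32 at 4 h, was at 11.3 ± 2.61 at 12 h and 50.7 ± 10.5 at 24 h, so that its highest mean of the 6 times was at 4 h. COR15B and PORB were also highest at 4 h. PWD went on to 467 ± 27.1 at 12 h (0.77 above 4 h, adjusted p = 7.8e-07), whereas DPE1 at 256 ± 25.1 (adjusted p = 0.248), PDC2 at 139 ± 42.5 (adjusted p = 0.809) and CCL at 1955 ± 131 (adjusted p = 0.71) did not pass the test against 4 h. COR27 had means of 1.54 ± 0.544 at 2 h, 10.8 ± 6.24 at 4 h and then 388 ± 46.8 at 12 h. AT3G21670 fell further, to 31.7 ± 11 at 12 h, while ARR15, at 88.4 ± 14 at 4 h, had means between 99.7 and 118 at later times. Of the 14 named rises, 3 were lower at 12 h than at 4 h by the test (GI, COR15B and AT1G20030), 3 were higher (AT4G32340, AT2G21130 and AT1G07050) and 8 did not pass. All 10 named falls had their lowest mean at 12 h, 7 of them lower than at 4 h by the test. The comparison of 12 h with 4 h, in which 19.6% of probe sets passed, shares the 4 h arrays with the comparison above.

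**Figure D5:**
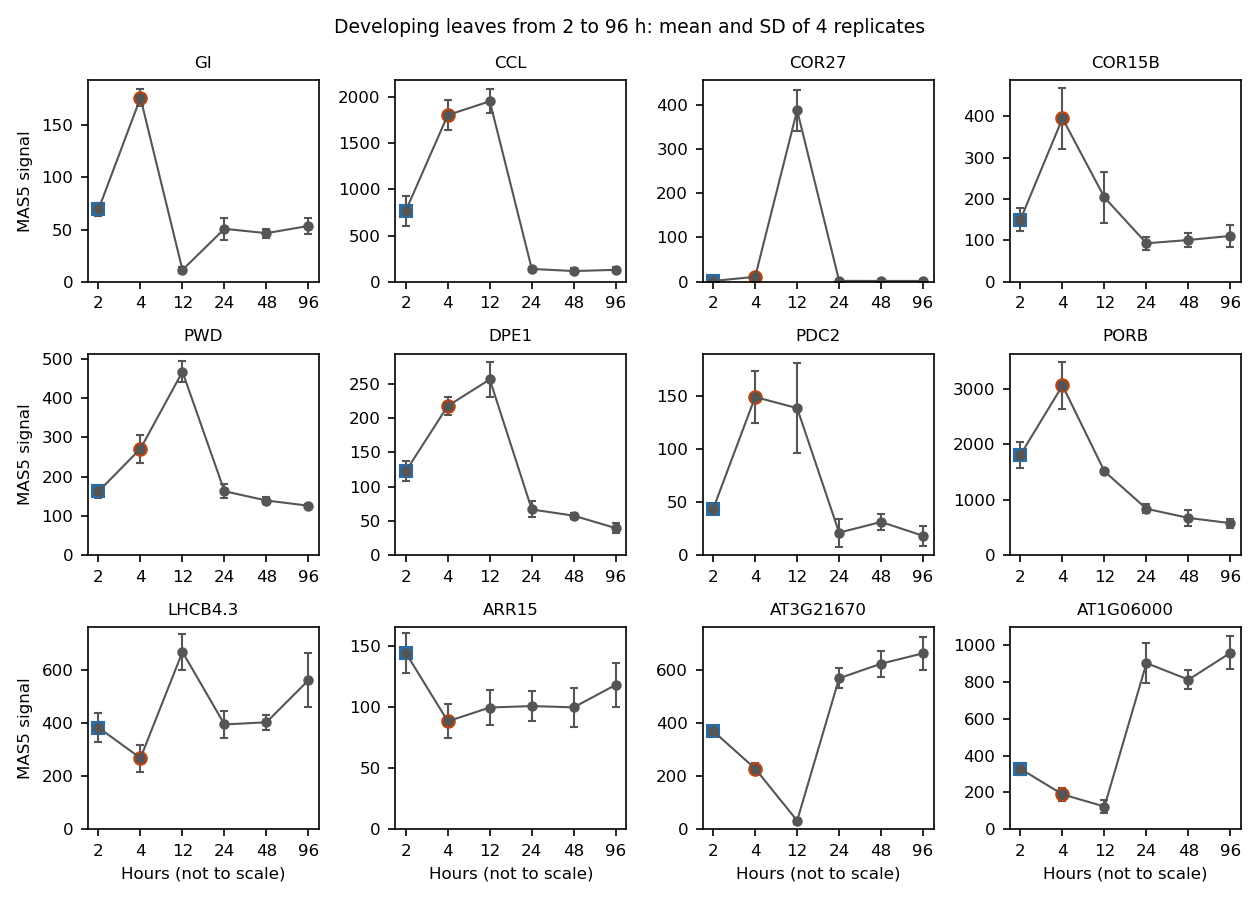
Mean MAS5 signal (y axis, from 0) at 2, 4, 12, 24, 48 and 96 h (x axis, not to scale) for 12 of the named genes, picked after their values were seen; bars are the SD of 4 replicates, and the orange circle and blue square mark 4 h and 2 h. GI peaks at 4 h, COR27 at 12 h, and CCL, PWD, DPE1 and PDC2 are higher at 4 and 12 h than from 24 h on.

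The arrays at 24 h and 12 h belong to neither group, and their comparison, from the same fit, was added after the data had been seen. Both comparisons use the same pooled spread, to which the 12 h and 24 h arrays contribute. A probe set of small spread passes either test more easily. The shares among the calls are thus no independent support for them, and the shares over all probe sets are not matched for spread. Of the 194 probe sets that rose at 4 h, 172 (88.7%) were lower at 24 h than at 12 h and 5 were higher, with a median log2 change of -1.19. Of the 132 that fell, 126 (95.5%) were higher at 24 h than at 12 h and 3 were lower, with a median of 1.46. Over all probe sets 14% were lower and 12.0% higher, and among the 5687 probe sets of strongest signal 23.8% were lower and 24.5% higher. CCL, for example, was at 138 ± 26 at 24 h and 1955 ± 131 at 12 h, and AT5G15950 was at 385 ± 73.4 at 24 h and 48 ± 10.9 at 12 h. GI ran the other way, 1.5 higher on the log2 scale at 24 h than at 12 h (adjusted p = 8.1e-10). COR15A (adjusted p = 0.641) and ARR15 (adjusted p = 0.954) did not pass.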

How the data were processed

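The authors deposited 1 intensity per probe set and array, a linear MAS5 signal according to the submitters' processing notes, its version not stated in the labels. The deposited values of each array had a 2% trimmed mean of 100. Of 22810 probe sets, 64 controls were left out. The gene table gave 1 gene for 13513, several for 503 and did not list 8730, of which none is named; 13436 names were matched by locus in the RefSeq table of assembly TAIR10.1.

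Samples were grouped by title and time. Signals were transformed as log2(signal + 10), unfiltered, and all 26 replicates in 7 groups (both arrays titled 24 h replicate 1 averaged) were fitted with limma 3.58.1 in R 4.3.3 (lmFit, eBayes with trend, 19 residual degrees of freedom, two-sided, Benjamini-Hochberg over 22746 probe sets, threshold 0.05). The steps were tested on simulated data. Sorting and figures used Python 3.11.15.

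Named genes are the 14 largest rises and 10 largest falls with 1 gene, no overlap and a higher-group mean above 43.9, the median of all probe sets, then up to 4 called members of each of 31 lists, with the strongest probe set per gene. Members and lists were chosen with earlier results of these data known. Families were matched on symbols and synonyms, since the gene table has no descriptions. Promoter motifs were not analysed here. Alternatives were other pseudocounts, filters, normalizations and eBayes settings, array weights, a replicate block, only both groups' arrays, a 2-fold minimum and each replicate left out; leaving out every array numbered 1 was chosen after seeing the data.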

Additional observations from a re-analysis of the deposited data

Results flagged for a closer look

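In 3 of the 66 sets of 4 arrays formed by the 33 named genes and both times, 1 array stood apart from the other 3 by Dixon's criterion, which flags about 1 in 20 groups by chance. GI had its highest 4 h value, 188.9, on replicate 1, while the other 4 h arrays lay between 172.2 and 172.5. PDC2 had its lowest 2 h value, 39.55, on replicate 1, against 44.66 to 45.5 on the other 2 h arrays. CCL had its highest 2 h value, 1012, on replicate 1, against 666.6 to 712.5. All 3 genes passed under every alternative in which they were tested.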

How the results depend on the processing

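No direction reversed. The count of 326 (194 up, 132 down) became 186 (116 up, 70 down) with only the 4 h and 2 h arrays fitted, 168 of them shared, and 55 (44 up, 11 down) with a 2-fold minimum. With 1 library left out it ran from 246 to 309 (143 to 187 up, 97 to 122 down). Not all of these were the same probe sets. From 67.2% of the 326 calls (without 2 h replicate 1) to 80.7% (without 2 h replicate 2) were kept. The other alternatives kept the count within 1.5 times. Of 33 named genes, 24 passed under every one of the 20 alternative fits in which they were tested. The 2-fold minimum is not among these fits, and named genes with a change below 2-fold fail it. For the other 9, losses are given above, in some cases only as a count, and the cause was not tested. The labels do not say whether replicate numbers pair the samples. Same-numbered arrays correlated in their deviations at 0.316, 0.122, -0.00319 and 0.237, so the pairing was not settled and no block was used; a replicate block gave 407 calls (228 up, 179 down). Calls in gene lists moved by 1 under some alternatives, to 2 of 6 flavonoid members under 7 of them and to 2 of 2 cytokinin members under 3. At an unadjusted p of 0.05, 2247 probe sets passed. Of the 326 calls, 9 and 33 lay in the weakest and second weakest groups of about 5687 probe sets by signal.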

Other observations

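The array titled 4 h replicate 1 whose treatment note reads ES entered no comparison. Its signals were 195 for GI, 1777 for CCL, 203 for PDC2, 365 for COR15B, 105 for COR15A, 313 for PWD, 251 for DPE1, 2823 for PORB, 50.5 for AT5G15950, 176 for AT3G21670, 114 for ARR15 and 63.6 for AT5G62210. Of these, COR15A lay among the values of its 2 h arrays, and ARR15 lay between its 4 h and 2 h values. The others lay among their 4 h values or beyond them, away from 2 h. AT5G64850, at 133, also lay between its 4 h and 2 h values.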
